A study of Mus musculus with 3 samples.

Results

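The transcription factors that hold B cell identity were followed in B cells and plasma cells of the mouse: Pax5, Bach2, Bcl6, Bcl11a, Id3, Id2, Irf8 and Foxo1. These 8 genes were chosen by name, and every probe annotated to one of their symbols was read on all arrays. Each gene had 1 probe, so the set is 8 of the 23473 probes and 8 of the 16390 named genes measured. All cells carried the IL-10 Venus reporter, whose fluorescence reports Il10 expression, and were sorted by flow cytometry straight from the mouse. One population was B220+, from the spleen, and the others were Venus+ CD138hi, from spleen and from bone marrow, called here spleen and marrow Venus+ cells. B220 is a surface form of CD45 found on B cells, and CD138 is the plasma cell surface protein syndecan-1. Each population was read on 1 array of a single colour. The sources used here do not give the number, age or sex of the mice in a sort.

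Pax5 switches on genes of the B cell receptor and its signalling and holds down genes of other lineages. Bach2 and Bcl6 repress the gene of Blimp1 (Prdm1), the factor that drives plasma cell differentiation, and Blimp1 in turn represses Pax5 and other genes of the B cell programme. Bcl11a is needed early in B cell development, Irf8 and Foxo1 act from the precursor to the germinal centre stage, and Id2 and Id3 bind E proteins such as E2A and keep them from DNA.

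Promoter sequences of 6 of the genes are shown here, because several of these genes are known targets of one another, through factors that bind short DNA words. Each is the window of 250 bases before a RefSeq transcript start of GRCm38.p6, written 5′ to 3′ on the gene's strand. Capitals mark the E box (CANNTG), the word bound by E proteins, and the palindrome TTCNNNGAA, which resembles the core bound by Bcl6 and is the word bound by STAT factors. The windows are chr4:44710695-44710944 on the minus strand for Pax5, chr4:32417185-32417434 on the plus strand for Bach2, and chr11:24080445-24080694 on the plus strand for Bcl11a. For Bcl6 it is chr16:23981284-23981533 on the minus strand, the second of its 2 windows, for Id3 chr4:136143572-136143821 on the plus strand and for Id2 chr12:25096093-25096342 on the minus strand.
Pax5: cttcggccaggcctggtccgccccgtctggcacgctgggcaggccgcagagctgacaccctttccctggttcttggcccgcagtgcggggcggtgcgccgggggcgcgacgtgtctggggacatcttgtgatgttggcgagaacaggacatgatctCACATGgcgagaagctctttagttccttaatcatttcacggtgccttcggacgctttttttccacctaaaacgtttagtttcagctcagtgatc
Bach2: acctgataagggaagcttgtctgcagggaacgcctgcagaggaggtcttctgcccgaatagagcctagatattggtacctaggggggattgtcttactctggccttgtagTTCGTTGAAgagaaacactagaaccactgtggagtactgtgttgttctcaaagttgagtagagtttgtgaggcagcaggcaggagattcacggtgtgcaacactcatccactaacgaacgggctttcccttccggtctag
Bcl11a: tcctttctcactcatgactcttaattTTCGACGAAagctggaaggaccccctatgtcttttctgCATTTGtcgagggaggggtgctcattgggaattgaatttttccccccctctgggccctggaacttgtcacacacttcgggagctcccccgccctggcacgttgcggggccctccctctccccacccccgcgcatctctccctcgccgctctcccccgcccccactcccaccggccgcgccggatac
Bcl6: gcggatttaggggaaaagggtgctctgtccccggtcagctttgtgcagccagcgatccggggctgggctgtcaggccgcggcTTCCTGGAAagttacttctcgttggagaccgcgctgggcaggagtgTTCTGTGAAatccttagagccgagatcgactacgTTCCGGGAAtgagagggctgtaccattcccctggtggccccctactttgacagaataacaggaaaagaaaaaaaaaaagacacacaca
Id3: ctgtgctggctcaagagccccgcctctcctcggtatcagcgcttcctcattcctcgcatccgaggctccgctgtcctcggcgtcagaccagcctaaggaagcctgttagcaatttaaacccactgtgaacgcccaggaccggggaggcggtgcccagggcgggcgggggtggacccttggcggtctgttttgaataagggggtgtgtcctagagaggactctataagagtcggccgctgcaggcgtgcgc
Id2: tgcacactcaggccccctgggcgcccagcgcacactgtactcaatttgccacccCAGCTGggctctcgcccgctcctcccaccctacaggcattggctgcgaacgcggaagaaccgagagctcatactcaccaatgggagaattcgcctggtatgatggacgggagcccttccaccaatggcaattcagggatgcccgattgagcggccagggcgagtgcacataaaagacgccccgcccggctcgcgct

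The Bcl6 window held 3 copies of the palindrome, beginning 168, 122 and 88 bases before the start, and its other window held an E box 60 and a palindrome 118 bases before the start. The Bach2 window held 1 palindrome, 140 bases before the start, and the Bcl11a window held 1 at 224 bases and an E box at 186. Pax5 had an E box 94 bases and Id2 an E box 196 bases before the start. In Id3, neither word occurred in this window. Of the 10 windows of the 8 genes, 6 held an E box and 5, of 4 genes, held the palindrome, and both words read the same on either strand. Over all 32851 windows in the table the shares were 66.2% and 7.02%. The forkhead word TGTTTAC, of factors such as Foxo1, the AP-1 type word TGANTCA and the interferon-stimulated response element, as a pair of GAAA repeats, were searched on both strands and had no match in the member windows, against 3.17%, 6.75% and 2.98% of all windows. A match is a description of the letters, and no binding was measured here.

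The genes lie on 6 chromosomes of GRCm38.p6, and all are protein-coding. Pax5 (chr4:44524748-44710694), Bach2 (chr4:32238413-32586109) and Id3 (chr4:136143822-136145392) share chromosome 4. Foxo1 is at chr3:52268337-52350109, Irf8 at chr8:120736358-120756694, Bcl11a at chr11:24076564-24173558, Id2 at chr12:25093799-25096092 and Bcl6 at chr16:23965050-23988866. The printed windows of Bach2, Bcl11a and Bcl6 lie within the gene's span, before an internal transcript start. The sources used here do not give the exons that the array's probes read.

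Values are normalized signals, that is, spot intensity minus the array's blank level, scaled so that the median detected signal is 25. A probe counted as detected above the blank mean plus 2 SD. The detected share of the 23473 probes was 67.6% to 73.4%, and the lowest detected signals were 1.34, 1.74 and 2.35 on the B220+, spleen Venus+ and marrow Venus+ arrays. A gene is called higher or lower here when its signals differed at least 2-fold, or by its bound where it was detected on only 1 of the arrays compared. Each log2 ratio carries a spot error, from the blank spots and the repeated positive control spots of both arrays. With 1 array per population there is no replicate check and no test was made, so array and population cannot be told apart. In such bulk samples, fewer cells of a type and less RNA per cell cannot be told apart either.

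The labels were set against marker genes. All 8 plasma cell markers named on the array were higher in both Venus+ populations than in B220+ cells, and their summed signals were 2402 (B220+), 29927 (spleen Venus+) and 38012 (marrow Venus+). The 8 named B cell markers summed to 29098, 11543 and 4263 in the same order, so B cell transcripts were still present in both Venus+ populations. The 9 named neutrophil markers summed to 5073 in B220+ cells, against 25.7 and 218, led by S100a9 at 2552 and S100a8 at 1649. They were detected for 9, 3 and 8 of the 9 genes, and S100a9, Camp, Ltf, Mpo, Cebpe and Csf3r were not detected in spleen Venus+ cells. In marrow Venus+ over B220+ cells 7 of 8 were lower, beside 30.7% of all genes. Mpo was higher there, at 2.22 in B220+ and 29.8 in marrow Venus+ cells. Both comparisons with B220+ cells therefore moved with these markers, and their part in the results was not tested.

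Of the 8 factors, 7 were lower in spleen Venus+ than in B220+ cells and none was higher. All 8 were lower in marrow Venus+ cells than in B220+ cells. With the normexp background correction 6 were lower in each comparison, and with the local background 6 and 7. Those detected on both arrays were 3.58- to 17.7-fold lower in the spleen, with Id2 as the exception at 1.23-fold higher, and 6.90- to 293-fold lower in the marrow. Of all genes compared, with bounds counted, 15.9% of 12968 were lower in the spleen and 30.1% of 12874 in the marrow comparison. Counting only genes detected on both arrays, 6 of 7 factors were lower in the spleen, where 16.5% of 11618 genes were, and 6 of 6 in the marrow, where 30.7% of 10813 genes were. The median log2 ratio of the factors was -2.95 in the spleen and -5.13 in the marrow, beside medians over all genes of -0.02 and -0.24. A total of 6 factors in the spleen and 5 in the marrow lay below the 5th percentile of all genes, which was -1.70 and -2.84. Both comparisons use the same B220+ array.

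**Figure D1:**
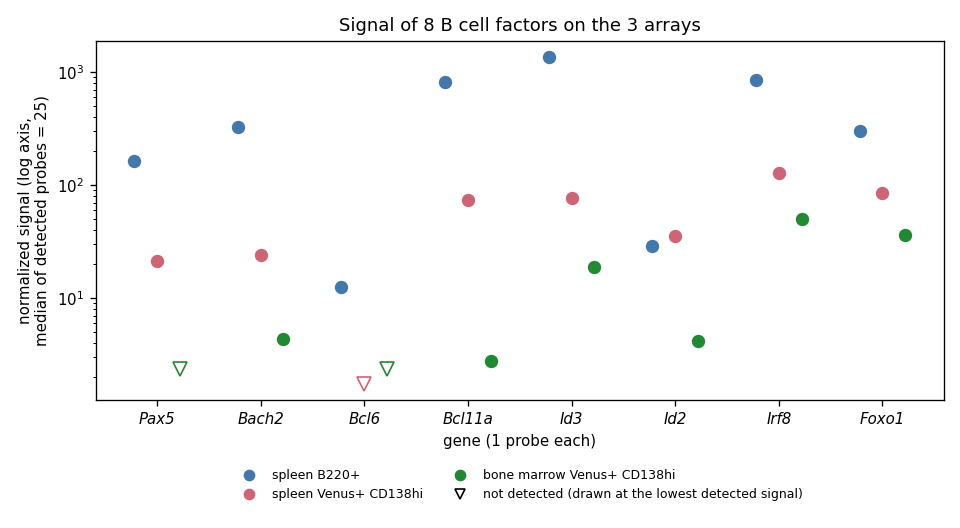
Normalized signal (log axis) of the 8 factors on the 3 arrays, 1 filled point per gene and array, coloured by population. Open triangles are probes that were not detected, drawn at the lowest detected signal of their array. All factors except Id2 are highest in B220+ cells, and Pax5 and Bcl6 are undetected in marrow Venus+ cells.

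Pax5, the commitment factor of the B lineage, gave signals of 164, 21.3 and 0.367 on the B220+, spleen Venus+ and marrow Venus+ arrays, the last not detected. It was thus high in B cells, low but measurable in spleen plasma cells and below the detection limit in the marrow. The log2 ratio of spleen Venus+ over B220+ cells was -2.95 ± 0.15 (spot error), or 7.73-fold lower, which left 12.9% of the B220+ signal. In marrow Venus+ cells Pax5 was at least 69.9-fold lower than in B220+ cells and at least 9.04-fold lower than in spleen Venus+ cells. With normexp, a background correction that adds an offset of 50, the spleen ratio was -1.98 and the marrow log2 bounds were -2.44 and -0.45. The raw spot medians were 357, 67.8 and 41.6, beside detection limits of 46.2, 42.7 and 43.7.

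Bach2, a repressor that holds back plasma cell differentiation, read 323, 23.8 and 4.37 in B220+, spleen Venus+ and marrow Venus+ cells. The order was the same as for Pax5, but Bach2 was detected on every array. It was 13.6-fold lower in the spleen (log2 ratio -3.76 ± 0.15) and 74.1-fold lower in the marrow (-6.21 ± 0.41) than in B220+ cells. Counted from the lowest ratio, this was rank 24 of 11618 genes in the spleen and rank 9 of 10813 in the marrow. Between the Venus+ populations Bach2 was 5.46-fold lower in the marrow, with a log2 ratio of -2.45 ± 0.41. With normexp the marrow ratios of Bach2 were -3.26 to B220+ and -0.46 to spleen Venus+ cells. The marrow spot, at a median of 45.9, stood close to its limit of 43.7.

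Bcl6, the repressor that governs the germinal centre reaction, was measured at 12.4 in B220+ cells and was detected in neither Venus+ population, where it read -0.553 in the spleen and -0.364 in the marrow. Its B220+ spot median was 67.4, beside a detection limit of 46.2. Against the lowest detected signal of the other array it was at least 7.15-fold lower in the spleen and at least 5.28-fold lower in the marrow. With normexp the log2 bounds were -0.24 and -0.13, under the 2-fold threshold, and with the local background Bcl6 gave no value. No ratio between the Venus+ populations can be given.

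Bcl11a, a zinc finger factor of early B cell development, read 818, 73.5 and 2.79 on the B220+, spleen Venus+ and marrow Venus+ arrays. It showed the lowest ratio of the set in the marrow. The spleen Venus+ signal was 11.1-fold lower than in B220+ cells (log2 ratio -3.48 ± 0.14) and the marrow signal 293-fold lower (-8.19 ± 0.62), which was rank 2 of 10813 genes. Against spleen Venus+ cells the marrow signal was 26.3-fold lower (-4.72 ± 0.62). The marrow spot median of 44.2 was barely above the limit of 43.7, and with a limit of 3 SD Bcl11a was not detected there and was at least 222-fold lower than in B220+ cells and at least 20.5-fold lower than in spleen Venus+ cells. With the local background it was at least 141-fold lower than in B220+ cells, and with normexp the marrow ratio to B220+ was -4.57. The local background beside the B220+ spot of Bcl11a was 956, at a spot median of 1606. Over the 9 alternatives its spleen ratio ran from -3.52 to -2.41.

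Id3 and Id2 are relatives without a DNA-binding domain of their own, and their patterns differed. Id3 read 1361 in B220+, 76.8 in spleen Venus+ and 18.8 in marrow Venus+ cells. Id2 read 28.8, 35.3 and 4.17. Id3 was highest in B cells by a wide margin, while Id2 differed by only 1.23-fold between the spleen arrays and was lowest in the marrow. For Id3 the spleen signal was 17.7-fold lower than in B220+ cells (log2 ratio -4.15 ± 0.14), rank 15 of 11618 genes and the lowest ratio of the set there. Its marrow signal was 72.4-fold lower (-6.18 ± 0.16) than in B220+ cells and 4.09-fold lower than in spleen Venus+ cells (-2.03 ± 0.14). Id2 had a log2 ratio of 0.29 ± 0.15 in the spleen, under the 2-fold threshold, and was rank 7309 of 11618 genes. The local background beside the Id2 spot was 68.5, 44.5 and 36.4 on the B220+, spleen Venus+ and marrow Venus+ arrays, and with the local background subtracted the spleen ratio of Id2 was 1.44. In the marrow Id2 was 6.90-fold lower than in B220+ cells (-2.79 ± 0.43) and 8.46-fold lower than in spleen Venus+ cells (-3.08 ± 0.42), rank 45 of 11352 in the latter comparison. With normexp these ratios were -0.59 and -0.71, under the 2-fold threshold.

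Irf8, an interferon regulatory factor of B cells and dendritic cells, read 848, 127 and 50.2 on the B220+, spleen Venus+ and marrow Venus+ arrays. It was well detected on every array. Its log2 ratio was -2.74 ± 0.14 in the spleen, 6.67-fold lower, and -4.08 ± 0.14 in the marrow, 16.9-fold lower. Marrow and spleen Venus+ cells differed 2.53-fold (-1.34 ± 0.12). The plasmacytoid dendritic cell markers, a cell type that also carries Irf8 and B220, summed to 217, 272 and 321, with all 8 named markers detected. Against B220+ cells 1 of them was lower and 3 were higher in the spleen, beside 16.5% and 15.7% of all genes. In the marrow 2 were lower and 3 higher, beside 30.7% and 22.4% of all genes. Siglech read 39.0, 12.0 and 12.1, while Ccr9 read 4.20, 40.7 and 20.3 and Cox6a2 4.15, 53.4 and 52.1. The conventional dendritic cell markers Itgax, Xcr1 and Clec9a were detected on no array, and the 7 named markers of that cell type summed to 27.5, 37.2 and 35.1. The part of dendritic cells in the Irf8 ratio was not tested.

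Foxo1, a forkhead factor that phosphoinositide 3-kinase signalling keeps out of the nucleus, read 302 in B220+, 84.2 in spleen Venus+ and 36.3 in marrow Venus+ cells. The log2 ratio was -1.84 ± 0.14 in the spleen, 3.58-fold lower, and -3.06 ± 0.14 in the marrow, 8.31-fold lower. Between the Venus+ populations it was 2.32-fold lower in the marrow (-1.22 ± 0.12). Foxo1 kept the highest share of its B220+ signal among the 5 factors that were lower in the spleen and detected on all arrays, 27.9% in the spleen and 12.0% in the marrow. Irf8 kept 15.0% and 5.92%, Bach2 7.37% and 1.35%, Bcl11a 8.98% and 0.342%, and Id3 5.64% and 1.38%.

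**Figure D2:**
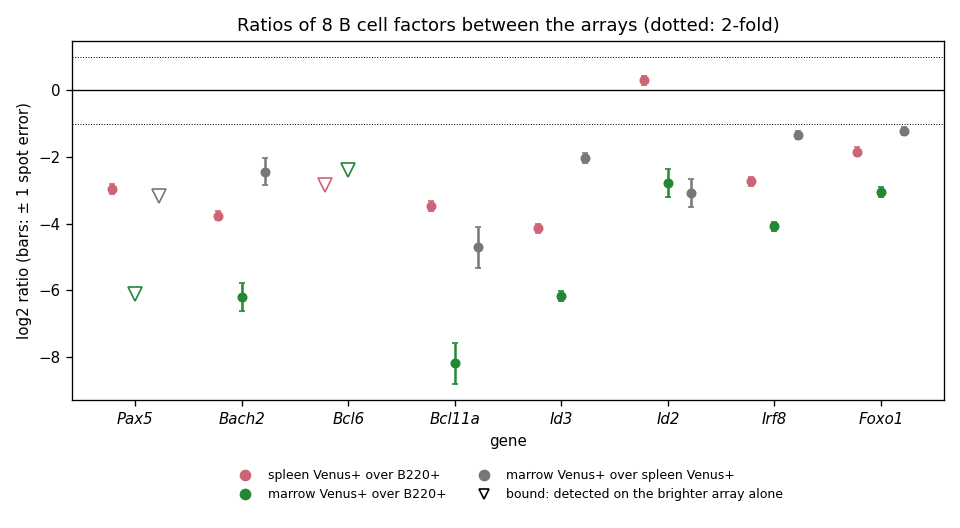
Log2 ratios of the 8 factors in the 3 comparisons, with bars of 1 spot error, dotted lines at 2-fold and open triangles for bounds, where a probe was detected on the brighter array alone. Id2 in the spleen, at 0.29, is the only ratio above 0.

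Marrow and spleen Venus+ cells were then set against each other, a comparison that does not use the B220+ array. Of the 8 factors, 7 were lower in the marrow and none was higher, beside 16.1% of all genes lower when bounds are counted. Bcl6 was the remaining one, detected on neither array. Of those detected on both, 6 of 6 were lower, beside 15.2% of 11352 genes, and the share of genes that were higher was 4.33%, or 4.49% with bounds. The median of the 6 was -2.24 and that of all genes -0.17, and 4 of them lay below the 5th percentile of -1.59. With scaling on the probes detected on all 3 arrays, the all-gene median was 0.16, Foxo1 had a ratio of -0.88 and Irf8 one of -1.01. With the normexp background correction only Bcl11a (-1.34) remained at least 2-fold lower. For the 5 factors detected on all arrays and lower in the spleen, the share of the log2 distance between B220+ and marrow Venus+ cells that lay between B220+ and spleen Venus+ cells was 67.1% for Id3 and for Irf8, 60.6% for Bach2, 60.2% for Foxo1 and 42.4% for Bcl11a. Id2, also detected on all arrays, was higher in the spleen and has no such share. The marrow signals of Bach2 and Bcl11a stood close to the detection limit. With normexp the spleen and marrow ratios to B220+ cells were -2.80 and -3.26 for Bach2, and -3.23 and -4.57 for Bcl11a. The order of the shares is not kept there.

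**Figure D3:**
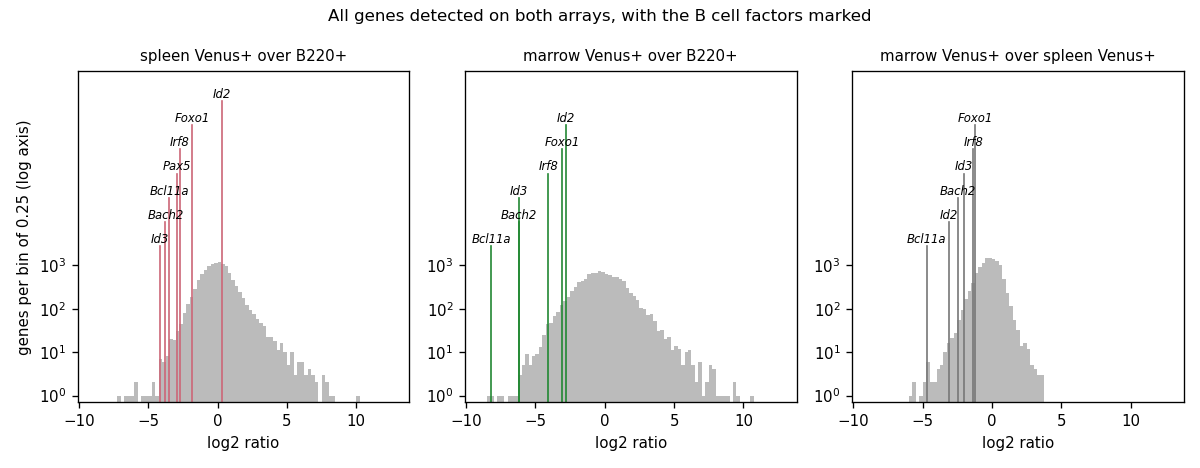
Number of genes per bin of 0.25 in log2 ratio (log axis) for all genes detected on both arrays, in the 3 comparisons, with a vertical line for each factor detected on both; line heights only separate the labels. In spleen Venus+ over B220+ cells 6 of the 7 lines lie below the 5th percentile of -1.70, and the line of Id2 is at 0.29.

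The relatives of these factors went both ways, at shares close to those of all genes. Of 24 paralogs listed, 23 had a named probe and 7 were detected on no array (Pax1, Pax4, Pax6, Pax7, Pax8, Id4 and Foxo4). In spleen Venus+ over B220+ cells 2 of 14 detected on both arrays were lower (Irf1 and Irf5) and 2 were higher (Irf4 and Foxo3), with a median of 0.25. In the marrow 4 of 13 were lower and 3 higher (median -0.78). Over all genes detected on both arrays, 16.5% were lower and 15.7% higher in the spleen, and 30.7% and 22.4% in the marrow. Irf4, which is needed for plasma cell formation, read 321, 1128 and 688 and so ran against Irf8, with log2 ratios of 1.81 and 1.10. Irf5 read 537, 225 and 147, with a spleen ratio of -1.26 that was 0.0904 with the local background subtracted. Irf1 read 730, 348 and 271, and Irf9 215, 117 and 53.3. Bach1, which shares its targets in haem metabolism with Bach2, read 19.7, 25.1 and 10.2, ratios of 0.35 and -0.95. Id1 read 11.7 on both spleen arrays and 6.82 in the marrow. Foxo3 was near the detection limit at 2.29, 4.87 and 5.46, with a ratio of 1.09 ± 0.51 in the spleen.

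Partner and neighbouring factors of the B cell network were lower more often than higher. Of 26 listed, 23 had a named probe and all 23 were detected on the B220+ and spleen Venus+ arrays. There 9 were lower and 3 higher (median -0.48), beside 16.5% and 15.7% of all genes. In the marrow 12 of 22 were lower and 1 was higher, with a median of -1.41, beside 30.7% and 22.4% of all genes. Lef1 was not detected in the marrow. Foxp1, a forkhead factor of mature B cells, had signals of 324, 55.2 and 6.71, and was 5.87-fold and 48.3-fold lower than in B220+ cells. Runx1 read 65.7, 9.91 and 3.75, ratios of -2.73 and -4.13, and Klf3 read 507, 146 and 32.7, ratios of -1.80 and -3.96. The E protein genes Tcf3, Tcf12 and Tcf4, whose products Id2 and Id3 bind, differed among themselves. Tcf3 read 526, 261 and 159, Tcf12 65.0, 55.7 and 37.6, and Tcf4 6.45, 15.1 and 4.70. Ebf1, which acts with Pax5, read 383, 149 and 195, and so was 2.57-fold lower in the spleen and under the 2-fold threshold in the marrow. Ikzf3 (Aiolos) was higher in both Venus+ populations at 25.0, 80.7 and 99.1. The corepressor genes Bcor, a partner of Bcl6, and Ncor1 were lower in both, Bcor at 116, 39.0 and 31.8 and Ncor1 at 719, 258 and 120. Mafk, whose small Maf protein pairs with Bach2, read 21.8, 15.6 and 4.58, while Mafg read 19.9, 43.4 and 35.7. Spi1 (PU.1) read 93.9, 42.1 and 24.7, and Klf2, which holds B cells in a resting state, 118, 56.8 and 27.4. Pou2af1, a coactivator of Oct factors, was under the 2-fold threshold in both comparisons at 1111, 1232 and 675.

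Most measured genes that Pax5 activates were lower in the Venus+ populations, and of those it represses more were higher than lower. Of 22 activated genes listed, 20 had a named probe, and the list holds Irf8 and Bach2 themselves. In the spleen 16 of 19 detected on both arrays were lower and 2 higher (Irf4 and Ikzf3), with a median of -1.46. In the marrow 14 of 18 were lower and 2 higher (median -2.75). Cr2, a complement receptor, was at 102 in B220+ cells and detected in neither Venus+ population, at least 58.5-fold lower in the spleen and at least 43.2-fold lower in the marrow. Among genes detected on both spleen arrays, Bank1, a B cell scaffold protein, had the lowest ratio after Bach2, with signals of 1046, 103 and 36.6. Of 14 repressed genes listed, 12 had a named probe. None of the 10 detected on both arrays was lower in the spleen and 7 were higher, with a median of 1.77, and in the marrow 1 was lower (Notch1) and 6 were higher (median 1.63). Over all genes 16.5% were lower and 15.7% higher in the spleen, and 30.7% and 22.4% in the marrow. With normexp the medians of the repressed genes were 0.65 and 0.46. Ccr2, a chemokine receptor, was detected in B220+ cells alone, at 8.64, and was at least 4.97-fold lower in the spleen and at least 3.67-fold lower in the marrow. Ccl9 was also detected in B220+ cells alone, near the limit at 1.73. Cd28, a costimulatory receptor that plasma cells also carry, read 5.52, 528 and 477, and Xbp1, the secretory factor, read 354, 7174 and 8402. Cd47 and Notch1 had the lowest ratios among the genes of that list detected on both arrays, -0.59 and -0.32 in the spleen. These lists were put together with earlier results of the data known, so their direction is a description.

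Of 13 Foxo1 targets with a named probe, 8 of 10 detected on both arrays were lower in the spleen and 1 was higher, with a median of -1.65. In the marrow 7 of 8 were lower and 1 higher (median -2.12), and a further 2 were lower by their bounds. The shares of all genes detected on both arrays were 16.5% lower and 15.7% higher in the spleen, and 30.7% and 22.4% in the marrow. Gadd45a, a stress-response gene, read 128, 25.0 and 9.01, and Ccr7, the homing receptor for lymphoid tissue, 303 and 65.3 with no detection in the marrow, at least 129-fold lower. With the local background the spleen median was -0.59. Cdkn1b, a cell cycle inhibitor, read 115, 59.2 and 27.9. Bcl2l11, the gene of the death factor Bim, ran the other way at 3.11, 14.7 and 11.4. Rag1 and Rag2 were detected on no array.

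Targets of Bcl6 repression were split, and no Bach2-repressed gene was called lower in either comparison with B220+ cells. Of 13 Bcl6-repressed genes with a named probe, 3 were lower, 4 higher and 6 between in the spleen, with a median of 0.48, and 6 of 12 were lower and 3 higher in the marrow, with a median of -0.68. Gpr183, a receptor that places B cells at the edge of the follicle, read 557, 35.6 and 23.1, a log2 ratio of -3.97 in the spleen. S1pr1 read 874 and 194 and was not detected in the marrow, at least 372-fold lower. Prdm1, the gene of Blimp1 and the shared target of Bcl6 and Bach2, read 8.72, 81.5 and 34.4, with ratios of 3.22 in the spleen and 1.98 in the marrow, and -1.24 between them. Cdkn1a, a cell cycle inhibitor on both lists, read 3.13, 21.1 and 3.01, and so was higher in the spleen alone. The oxidative stress genes Hmox1 and Gclm, also repressed by Bach2, read 21.1, 24.2 and 45.5, and 33.3, 41.3 and 47.1. Of the 6 Bach2-repressed genes, 2 of 5 detected on both arrays were higher in the spleen and 2 of 4 in the marrow, and none was lower. Cdkn2a, detected in spleen Venus+ cells alone, was at least 4.25-fold higher there than in B220+ cells. Both lists can be set beside all genes detected on both arrays. For those, the lower share was 16.5% and the higher share 15.7% in the spleen comparison. The marrow comparison gave shares of 30.7% and 22.4%.

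Genes repressed by Blimp1, a list that holds 5 of the 8 factors (Pax5, Bcl6, Bach2, Id3 and Bcl11a), were mostly lower. In the spleen 9 of 11 were lower, with a median of -2.48, beside 16.5% of all genes. In the marrow 10 of 10 were lower, with a median of -3.52, beside 30.7% of all genes. Pax5, Bach2, Id3 and Bcl11a are among the 9 lower in the spleen, so the list partly repeats the factors' own values. Myc and Spib had the highest ratios of the list in the spleen. Myc, the growth regulator, read 52.7, 95.5 and 21.4, and Spib, an Ets factor of B cells, 45.9, 33.3 and 4.33. Of 10 germinal centre genes with a named probe, 2 of the 8 detected on both arrays were lower in the spleen and 3 of 8 in the marrow, beside 16.5% and 30.7% of all genes, and none was higher. Bcl6 and Rgs13, a regulator of G protein signalling, were lower by their bounds in both comparisons, Rgs13 at least 6.25-fold in the spleen. Among those detected on both spleen arrays, Bcl7a, at 223, 44.0 and 24.5, and Ezh2, at 166, 72.3 and 25.6, had the lowest ratios, and Mybl1 and Gcsam the highest, 0.88 and 0.50.

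**Figure D4:**
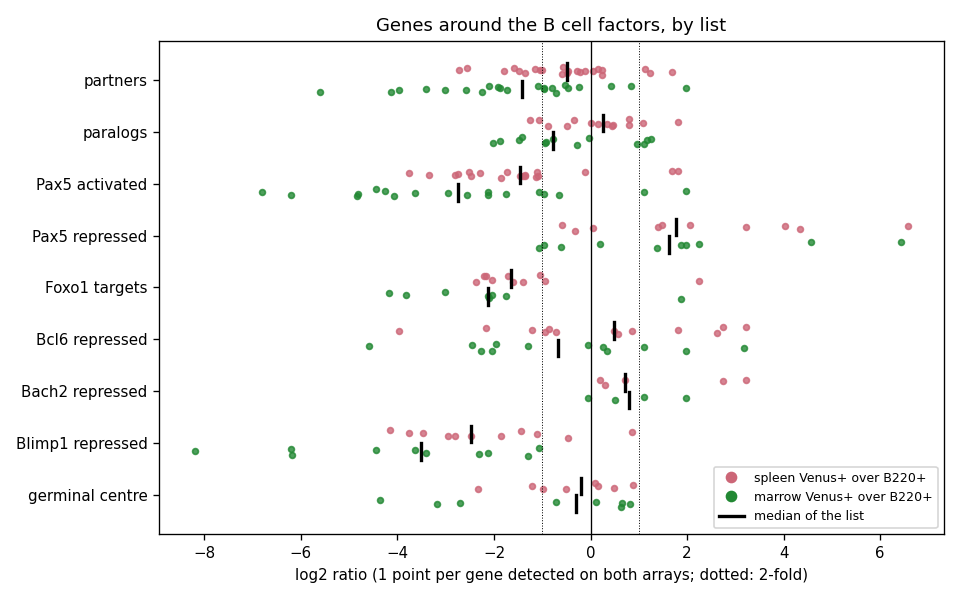
Log2 ratios of the genes of each list in spleen and marrow Venus+ cells over B220+ cells, 1 point per gene detected on both arrays, with a black bar at the list's median and dotted lines at 2-fold. Pax5-activated genes have medians of -1.46 and -2.75, and Pax5-repressed genes 1.77 and 1.63.

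Markers of other cells that could carry these factors were read as well. Among 10 precursor B cell markers with a named probe, Rag1, Rag2 and Dntt were detected on no array. The summed signal was 2541, 428 and 318, led by Vpreb3 at 2397, 200 and 168. Cd93, the next highest, went the other way at 98.1, 171 and 135, with log2 ratios of 0.80 and 0.46, under the 2-fold threshold. T cell markers, a lineage in which Id2, Id3 and Foxo1 also act, summed to 45.0, 1301 and 1592. In the Venus+ populations Cd28 and Cd247 made most of this sum, and Cd247 read 15.7, 637 and 1038. NK and innate lymphoid cell markers, of cells that depend on Id2, summed to 287, 199 and 177, mostly from Tbx21. Monocyte and macrophage markers summed to 88.5, 144 and 280, led by Cd68 at 33.0, 111 and 241. Vcam1 went the other way at 19.1, 8.33 and 7.76. Ccr2, Adgre1 and Cd163 were detected in B220+ cells alone, Itgam in marrow Venus+ cells alone and Cd14 on no array. The part of these cells in the ratios of the factors was not tested.

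The genes most like each factor were sought among 9360 others detected on all arrays with a signal of at least 10 on 1 or more of them, by the larger of the absolute differences in the log2 ratios to B220+ cells in the spleen and in the marrow. For Bach2 the nearest was Id3, at a distance of 0.38, then Nrm at 0.41 and Tnfaip8l2 at 0.47. For Id3 they were Nrm at 0.24, Bach2 at 0.38 and Tnfaip8l2 at 0.56. Only 3 genes lay within 0.5 of Bach2 and 2 within 0.5 of Id3. Bcl11a had none within 0.5, and its nearest genes were Btg1 at 0.96, Scd1 at 1.81 and Neurl3 at 1.98. Irf8 had 48 genes within 0.5, led by Pold1, Runx1 and Slc6a20a, and Id2 had 12, led by Marcksl1, Rin3 and Nek2. Foxo1 had 300, led by Top2a, Smc4 and Ppid. With 3 arrays that share their B220+ signal in both ratios, such a likeness is a description.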

How the data were processed

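Total RNA of sorted cells was amplified, labelled with Cy5 and hybridized to a Toray 3D-Gene mouse oligonucleotide array, per the labels' protocols. The scanner files deposited give a median intensity per spot, per the file headers. The authors subtracted a mean of blank spots and set the median detected signal to 25, as the series' design text states. No version of the extraction software is given in those sources.

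Here each array's blank level was the mean of the middle 90% of its 2736 blank spots, the detection limit that mean plus 2 SD, and the median detected signal was scaled to 25. Detection calls from this recipe differed from the deposited table of processed intensity values for 0 probes, and values of 10 or more differed by at most 0.985%, 3.90% and 2.97% on the B220+, spleen Venus+ and marrow Venus+ arrays. Faulty spots (0, 1 and 2) were left out, none of them of a factor. Of 23473 probes, 16631 had a gene symbol in the platform annotation, of which 3947 were updated through the RefSeq gene table of GRCm38.p6. Where a gene had several probes, the one of highest mean log2 signal stood for it. For a probe detected on 1 array of a pair, the fold is a lower bound: the bright signal is divided by the dim array's lowest detected signal, or by the dim probe's own signal if that is higher. The spot error joins the blank SD (0.670, 0.868 and 1.18 in signal) and the relative SD of positive controls (7.57%, 5.77% and 5.21%). Precision is limited by having 1 array per population.

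The members and the 18 gene lists were chosen with earlier results of these data known. Names were drawn from the factors, their paralogs and partners, the 2 highest and 2 lowest ratios of each list in the spleen among genes detected on both arrays, and the 3 genes most like each factor. Not all of these are named, and other genes of a list were named after their values were seen. Motifs were searched in RefSeq promoter windows, which matched all 8 genes. The 9 alternatives were normexp background (limma 3.58.1 in R 4.3.3), local background, the deposited values, a 3 SD limit, scaling on probes detected on all arrays, quantile normalization, the mean over probes, a 1.5-fold threshold and a signal of at least 10. The scripts, in Python 3.11.15, were tested on simulated data.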

Additional observations from a re-analysis of the deposited data

Results flagged for a closer look

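Id2 had opposite directions in the Venus+ populations relative to the shared B220+ array, with a log2 ratio of 0.29 in the spleen and -2.79 in the marrow. The same held for Blk, a B cell kinase, at 0.45 and -3.89, for Myc at 0.86 and -1.30, for Myb at 0.63 and -0.84 and for Bach1 at 0.35 and -0.95. Each of these ratios was at least 2 spot errors away from 0. The differences between the populations were not tested, since each has 1 array. With the local background, the spleen ratios of Bach1 and Blk were -0.45 and -0.04.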

How the results depend on the processing

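The factors were recomputed under 9 alternatives. Of 201 ratios and bounds of the factors, 0 changed sign, but part of this was fixed beforehand. A bound that reaches 0 is dropped, and with 1 probe per factor the mean over probes changes no value. The 1.5-fold threshold and the signal of at least 10 also leave the ratios as they were. Values that were lost, or that turned from a ratio into a bound, are not among the 201. The factors lower than in B220+ cells, 7 in the spleen and 8 in the marrow, were 6 and 6 with normexp (without Bcl6, and in the marrow without Id2) and 6 and 7 with the local background. In spleen Venus+ over B220+ cells the median of -2.95 was -2.72 with normexp, -2.46 with the local background and -2.76 with quantile normalization. In the marrow the median of -5.13 was -3.46 with normexp, -4.43 with the local background, -4.02 with a 3 SD limit (which leaves Bcl11a out), -4.84 with common scaling and -4.83 with quantile normalization. Between marrow and spleen Venus+ cells the median of -2.24 was -0.84 with normexp and -1.91 with common scaling. With the local background 1 factor was higher in the spleen, Id2 at 1.44, and Bcl6 gave no value. With normexp 1 factor, in place of 7, was lower in marrow than spleen Venus+ cells. Irf5 in spleen Venus+ over B220+ cells changed sign to a log2 ratio of 0.0904 with the local background, and Prf1 to 0.121 with normexp. The cause of these shifts was not tested.

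Over all genes, 1915 were lower and 1828 higher in the spleen (48.8% of calls higher), against 1213 and 431 (26.2%) with normexp and 1156 and 2551 (68.8%) with the local background. In the marrow 3320 were lower and 2424 higher (42.2%), against 2201 and 609 (21.7%) with normexp, 2140 and 1927 with the local background and 2609 and 3056 (53.9%) with common scaling. Between the Venus+ populations 1720 were lower and 492 higher (22.2%), against 337 and 69 with normexp, 916 and 1250 (57.7%) with common scaling, 1135 and 1175 (50.9%) with quantile normalization, and 3303 and 1578 at 1.5-fold. Common scaling moved the all-gene median from -0.24 to 0.05 in the marrow comparison.

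No paired analysis was possible because each population has 1 array and no result comes from a test, and leaving out an array leaves no comparison. Signals near the blank level limit what can be said of Bcl6 in all populations and of Pax5, Bach2, Bcl11a and Id2 in the marrow.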

Other observations

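Some genes of the lists, chosen after their values were seen, stood apart from their neighbours. Emb, listed as repressed by Pax5, read 6.36 in B220+, 104 in spleen Venus+ and 4.17 in marrow Venus+ cells, so it was high in the spleen Venus+ population alone. Fcer2a, the B cell receptor CD23 for IgE, read 349, 62.4 and 166, and was the one B cell marker that was higher in marrow than in spleen Venus+ cells, with a log2 ratio of 1.41. Cd72, a B cell coreceptor, read 919, 434 and 8.17, so on the log2 scale most of its difference lay between the Venus+ populations. The probe annotated to Pax9, a paralog of Pax5 known from skeletal and tooth development, read 763, 1335 and 1725, well above the detection limit on every array.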
